A study of Mus musculus with 6 samples.

Results

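The shores of CpG-dense sequence were examined in 3 kinds of mouse pluripotent stem cells. A shore was a 2 kb tile of chromosomes 1 to 19 that held 40 or fewer CpG positions and lay directly beside a CpG-dense tile, one with more than 80 positions. Of 13184 such tiles, 9266 (70.3%) had at least 40 CpG reads in every library and are the shores described here, out of 441118 tiles that met the same minimum (2.10%). The other 3918 were left out for coverage alone. They held a median of 13 positions, against 24 in the shores. Pooled over reads, their levels were 15.3% in ESCs, 51.5% in ASCs and 83.1% in EpiSCs. The shores pooled in the same way had 13.2%, 44.4% and 75.3%. Most shores (9198) had a dense tile on 1 side and 68 had one on both sides, and 6649 of the 9188 dense tiles adjoined at least 1 shore. The choice used CpG positions and coverage and no methylation level.

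Advanced pluripotent stem cells (ASCs) were obtained in the study as reporter-positive clones in medium with Activin A, BMP4, the Wnt agonist CHIR99021 and leukaemia inhibitory factor (LIF). Embryonic stem cells (ESCs) were kept in 2i/LIF, a medium that holds them in the naive state, and primed epiblast stem cells (EpiSCs) stand for the later, postimplantation epiblast. According to the sample labels every library came from wild type cells of strain 129S2/SvPasCrl, and the study called the lines female. Its methods describe crosses of mixed background for the lines that gave the ASCs. A figure legend gives such a cross for the ESCs and EpiSCs of a transcript comparison. There were 2 libraries in each group. State, derivation and medium differed together between the groups and cannot be told apart. The assay measured DNA alone, so the named cell types could not be checked against marker transcripts.

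CpG methylation is written by DNMT3A and DNMT3B and copied by DNMT1 with UHRF1, and TET enzymes oxidise it. Dense CpG clusters at gene starts mostly stay free of it in pluripotent cells, while sparse CpGs in most of the genome carry it. The shore is the stretch in which one state gives way to the other, and its methylation is known to differ between tissues more often than that of the dense centre.

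Short stretches of 6 shores are printed first, taken from shores named below for the greatest differences and not typical of shores at large. Each is the 200 bases of the shore with the most CpGs, read from GRCm38 on the plus strand, and the capitals mark every CG. The first 3 are from the shores of Papola (poly(A) polymerase alpha), Hells (a chromatin remodeller needed for DNA methylation) and Mybl2 (a cell cycle transcription factor), which had almost no methylation in ASCs and nearly full methylation in EpiSCs. The next 2 are from Pax3 and Pax7, transcription factors of neural crest and muscle, where ASCs were above EpiSCs. The last is from Rnf7, a RING subunit of cullin ubiquitin ligases, where ASCs were far above ESCs. None of the stretches overlaps an exon.
Papola, chr12:105786751-105786950, intron: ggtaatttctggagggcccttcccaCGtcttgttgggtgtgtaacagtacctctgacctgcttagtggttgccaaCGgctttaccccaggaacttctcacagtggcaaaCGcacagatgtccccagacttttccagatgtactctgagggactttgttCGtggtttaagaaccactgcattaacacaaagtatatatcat
Hells, chr19:38928601-38928800, upstream of the gene: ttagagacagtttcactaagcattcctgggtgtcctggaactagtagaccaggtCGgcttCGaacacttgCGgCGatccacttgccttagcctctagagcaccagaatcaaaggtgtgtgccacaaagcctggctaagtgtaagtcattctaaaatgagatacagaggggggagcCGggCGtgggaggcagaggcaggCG
Mybl2, chr2:163056451-163056650, intron: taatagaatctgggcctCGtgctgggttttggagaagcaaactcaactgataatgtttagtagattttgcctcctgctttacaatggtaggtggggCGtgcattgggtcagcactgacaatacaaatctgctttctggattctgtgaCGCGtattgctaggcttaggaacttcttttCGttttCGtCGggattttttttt
Pax3, chr1:78199151-78199350, upstream of the gene: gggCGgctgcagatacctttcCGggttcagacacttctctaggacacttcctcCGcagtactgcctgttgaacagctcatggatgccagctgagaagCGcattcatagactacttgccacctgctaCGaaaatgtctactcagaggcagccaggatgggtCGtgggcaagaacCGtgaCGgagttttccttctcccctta
Pax7, chr4:139818051-139818250, intron: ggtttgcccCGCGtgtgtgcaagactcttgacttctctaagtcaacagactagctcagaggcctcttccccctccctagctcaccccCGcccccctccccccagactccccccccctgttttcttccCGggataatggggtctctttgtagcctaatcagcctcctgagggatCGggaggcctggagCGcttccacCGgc
Rnf7, chr9:96481651-96481850, upstream of the gene: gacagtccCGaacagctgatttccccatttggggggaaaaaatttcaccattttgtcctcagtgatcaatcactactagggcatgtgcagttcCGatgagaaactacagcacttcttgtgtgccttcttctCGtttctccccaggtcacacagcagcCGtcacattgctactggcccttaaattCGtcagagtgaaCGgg

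The stretches hold between 4 and 8 CGs, and each CG was covered in the tables. In the Papola stretch no methylated read was counted in either ASC library, among 13 and 15 reads, or in either ESC library, among 19 and 18 reads. Counts of 0 at these depths allow levels up to 23.1%, 20%, 15.8% and 16.7%, while the EpiSC libraries stood at 94.7% and 96%. The Mybl2 stretch had 0 of 24 and 0 of 14 reads in ASCs, which allow up to 12.5% and 21.4%, and 88.9% and 92.3% in EpiSCs. In the Hells stretch both ASC libraries were at 0 of 29 reads, which allows up to 10.3%, and the EpiSC libraries were at 100% and 96.7%. The Pax7 stretch was the other way round, with 55.6% and 72.2% in ASCs and 0 of 36 and 0 of 27 reads in EpiSCs, which allow up to 8.33% and 11.1%. In the Pax3 stretch ASCs had 68% and 50%, ESCs 14.5% and 25.5%, and EpiSCs 5.97% and 2.27%. The Rnf7 stretch had 77.8% and 77.3% in ASCs, 0 of 11 reads and 15.2% in ESCs, and 96.3% and 100% in EpiSCs. The count of 0 in 11 reads allows up to 27.3%. These limits cover counting error only, and CpGs on the same read are not independent.

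The 6 libraries held between 63803799 and 74925271 CpG reads, a mean coverage of 2.96 to 3.46 per listed CpG, and EpiSC replicate 2 was the shallowest. A shore had a median of 92 to 106 CpG reads per library. The level of a tile is the share of its CpG reads that were methylated. Replicates differed by more than independent CpG counts would. The mean chi-square per shore was 1.40 in ESCs, 1.46 in ASCs and 1.47 in EpiSCs, where independent counts give about 1. CpGs on the same read are not independent, and their part in this excess was not tested. The tests of single tiles allowed for the excess by a factor drawn toward 1 shared value, 1.39. That value carried 156 degrees of freedom against 3 from the tile itself, so a shore's own replicate spread counted little. The SEs and adjusted p-values below rest mainly on read counts and the shared factor. The labels number the libraries as replicates and the study calls them biological, but nothing says whether they came from separate derivations.

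The shores were least methylated in ESCs, intermediate in ASCs and most methylated in EpiSCs. The median shore stood at 47.4% and 47.5% in the ASC libraries and at 47.4% ± 0.023 in their mean (SD, n = 2). It stood at 12.3% and 12.7% in the ESC libraries and at 87.7% in both EpiSC libraries. No library of a group came near those of another. An exact permutation test of the F statistic over the 15 assignments of libraries to groups gave p = 0.067, the smallest value this design can give, and a comparison of 2 groups of 2 cannot go below 0.33.

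The ASC shores were spread over a wide range. In the ASC libraries 18.2% and 18.6% of shores lay under 20% methylation, 35.2% and 34.6% between 20 and 50%, 44.0% and 44.2% between 50 and 80%, and 2.60% and 2.67% above 80%. In EpiSCs 64.4% and 63.9% of shores were above 80%, and in ESCs 77.8% and 76.4% were below 20%. Among other CpG-poor tiles, the 393108 tiles with 40 or fewer positions and no dense neighbour, only 2.30% and 2.25% lay below 20% in ASCs. A level near the middle in DNA from many cells cannot tell a mixture of methylated and unmethylated cells from partial methylation in each.

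**Figure D1:**
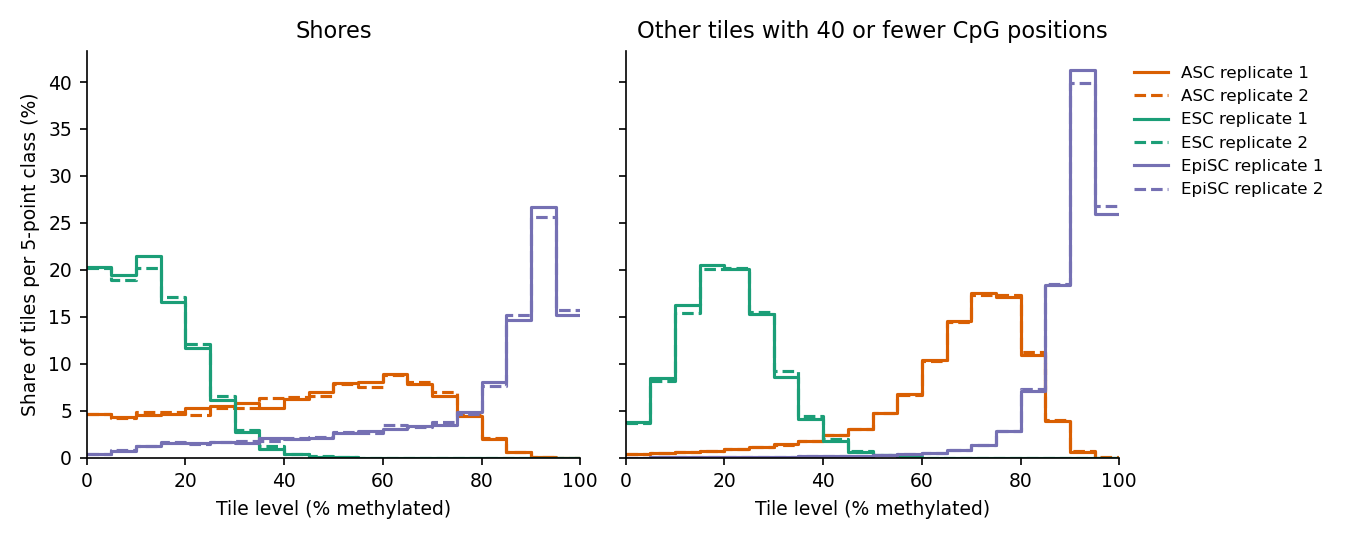
Share of tiles (vertical axis, percent) in each 5-point class of methylation level (horizontal axis, percent), for the 9266 shores (left) and the 393108 other tiles with 40 or fewer CpG positions (right), 1 line for each of the 6 libraries. ASC shores are spread from 0 to about 80%, whereas most other CpG-poor tiles of ASCs lie between 50 and 80%.

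In percentage points, the shores differed from CpG-poor tiles elsewhere most in ASCs. The median of other CpG-poor tiles was 20.2% in ESCs, 70.1% ± 0.12 in ASCs and 92.4% in EpiSCs. Because shores hold slightly more CpGs, the comparison was made within classes of CpG number. At 11 to 20 positions (2695 shores) the median of shores minus that of other tiles was -5.71 points in ESCs, -16.1 in ASCs and -1.96 in EpiSCs. At 21 to 30 positions (4287 shores) the differences in ESCs, ASCs and EpiSCs were -7.95, -22.2 and -4.60 points, and at 31 to 40 positions (2259 shores) they were -10.4, -32.9 and -19.9 points. This order is one of points and not of ratios, since at 21 to 30 positions shores and other tiles had 12.8% and 20.7% in ESCs, and 48.2% and 70.4% in ASCs. The mean difference over 4 classes, including 25 shores of 10 or fewer positions, was -21.7 and -21.8 points in the ASC libraries, -7.27 and -7.62 in the ESC libraries, and -6.87 and -7.35 in the EpiSC libraries. The ASC libraries stood apart from the others and those of ESCs and EpiSCs overlapped (exact permutation test of F, p = 0.133). The order of ESCs and EpiSCs changed with 100 reads required or with a denser neighbour, while the ASC difference in points was the widest under those settings too.

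The gap shrank beyond the shore but did not close in ASCs or ESCs. In the 6281 CpG-poor tiles on the far side of a shore and with no dense neighbour of their own, the median was 16.9% in ESCs, 62.6% ± 0.025 in ASCs and 92.5% in EpiSCs (SD over 2 libraries; exact permutation test, p = 0.067). The ASC and ESC values each lay between that of the shores and that of other CpG-poor tiles, and the EpiSC value was at the level of other tiles.

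Dense tiles themselves were nearly unmethylated, with medians of 2.44%, 1.09% and 6.80% over 8741 of them in ASCs, ESCs and EpiSCs. Over 9275 pairs of a shore and its dense neighbour, the median step up was 41.8 and 41.6 points in ASCs, 10.4 and 10.7 points in ESCs, and 72.3 and 72.8 points in EpiSCs (exact permutation test, p = 0.067). The step in ASCs was thus between those of the other groups, and no libraries of different groups overlapped.

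Within the shore, methylation rose over the first kilobase and then levelled off. In the first 250 bp beside the dense tile ASC shores were 21.7% ± 0.040 methylated, ESC shores 6.44% ± 0.15 and EpiSC shores 45.7% (SD, n = 2). Between 750 and 1000 bp the levels were 50.3%, 14.9% and 85.4%, and in the last 250 bp they were 55.6%, 16.7% and 87.2%. Each bin of each library rested on at least 101501 CpG reads. CpG number fell along the same axis, from 4.86 positions a shore in the first bin to 2.73 in the last, and its part in the rise was not tested. The rise from the first bin to the last was 10.1 and 10.4 points in ESCs, 33.7 and 34.1 points in ASCs, and 41.3 and 41.6 points in EpiSCs (exact permutation test, p = 0.067). The ASC minus EpiSC difference of this rise, -7.52 points, was -2.52 when shores were limited to 30 or fewer positions.

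Relative to the far end, EpiSCs had the highest level next to the dense tile. The first bin reached 39% ± 0.16 of the last in ASCs and 38.5% ± 0.033 in ESCs, against 52.5% in EpiSCs (exact permutation test, p = 0.067). The ASC level was 0.388 of the way from the ESC to the EpiSC level in the first bin and 0.552 of the way in the last. Inside the dense tile the same measure was lower still, at 0.150 of the way in the bin 1000 to 1250 bp from the border.

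**Figure D2:**
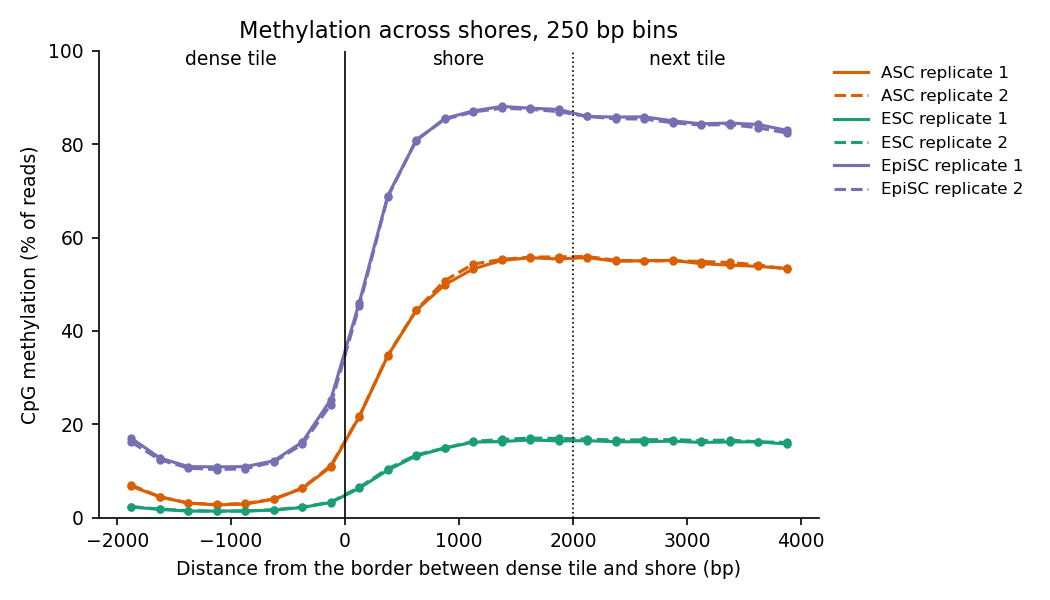
Pooled CpG methylation (vertical axis, percent of reads) in 250 bp bins by distance from the border between dense tile and shore (horizontal axis, bp), for the 9198 shores with 1 dense neighbour, 1 line for each of the 6 libraries. From the first bin of the shore to the last the level rises from 21.7% to 55.6% in ASCs, from 6.44% to 16.7% in ESCs and from 45.7% to 87.2% in EpiSCs.

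The place of ASCs between the other groups was then taken shore by shore. Over the 7932 shores in which EpiSCs exceeded ESCs by at least 40 points, the median ASC shore lay 0.525 of the way from ESCs to EpiSCs in both libraries, against 0.694 in other CpG-poor tiles. The values ran from 0.0793 at the 5th percentile to 0.815 at the 95th in ASC replicate 1. Shores less than 0.2 of the way made up 12.1%, against 2.18% of other CpG-poor tiles. Shores below 20% in both ASCs and ESCs and above 80% in EpiSCs numbered 480 (5.18%, against 1.24% of other CpG-poor tiles). Those within 20 points of an EpiSC level above 80% numbered 980 (10.6%, against 42.5%). Shores below 20% in all 3 groups numbered 292 (3.15%, against 0.161%).

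Each shore was then tested in a model fitted to all 441118 tiles. A call needed an adjusted p under 0.05 (limma-moderated quasi-binomial test, Benjamini-Hochberg over all tiles) and a difference of group means of 20 points or more. ASCs were above ESCs in 6806 shores (73.5%), where 91.2% of all tiles were called in this direction, and the median difference was 33.3 points in shores and 46.6 over all tiles. No shore was called lower in ASCs than in ESCs by this model (background 0%), and none by limma on M values or by Fisher's exact test on summed reads. Without the 20-point minimum, 4 shores had an unadjusted p under 0.05 with the lower level in ASCs. They also passed by the adjusted p, at 0.043% of shores against 0.070% of all tiles.

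EpiSCs were above ASCs in 6765 shores (73.0%), where 53.4% of all tiles were called in this direction. This excess of shores rests on the 20-point minimum, since by the adjusted p alone 89.9% of shores and 90.5% of all tiles were called. The median ASC minus EpiSC difference was -29.4 points in shores and -20.9 over all tiles. EpiSCs were above ESCs in 8745 shores (94.4%, against a background of 96.5%), with a median difference of 69.3 points in shores and 69.8 over all tiles. EpiSCs were called below ESCs in 1 shore, against a background of 0.000907%. The distance from ESCs to EpiSCs was thus nearly that of the genome at large, and ASCs stood lower within it. The ASC libraries enter both ASC comparisons and the EpiSC libraries both of theirs, so the counts are not independent.

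Calls of shores and of their dense neighbours were then set side by side. Of 9142 tested pairs the shore was called lower in ASCs than in EpiSCs in 6702 (73.3%), the dense tile in 976 (10.7%) and both in 745. The 745 pairs were 11.1% of the pairs with the shore called and 76.3% of those with the dense tile called, close to the shares over all pairs. Over the 6702 the median ASC minus EpiSC difference of the dense tile was -4.38 points.

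The 10 shores with the greatest deficit in ASCs against EpiSCs were near 0 in ASCs and ESCs and above 90% in EpiSCs. Coordinates of whole shores are given in GRCm38 with the part of the annotation they touch. The Papola shore (chr12:105786001-105788000, intron) had 0% and 2.38% in ASCs, 0% in both ESC libraries, and 93.2% and 97.9% in EpiSCs. That of Hells (chr19:38928001-38930000, intergenic) had 4.08% and 2.74% in ASCs and 2.44% and 4.85% in ESCs, against 96.7% and 98.8% in EpiSCs. Mybl2 (chr2:163056001-163058000, intron) had 0% and 0.847% in ASCs and 0.565% and 0% in ESCs, against 92.9% and 95.4% in EpiSCs. In all of these the ASC and ESC libraries overlapped or lay within a few points, and the EpiSC libraries stood far above. The ASC minus EpiSC difference was -94.4 ± 2.75 points for Papola (SE, adjusted p = 4.25e-24), -94.3 ± 2.13 for Hells (5.25e-35) and -93.7 ± 1.98 for Mybl2 (1.34e-40, limma-moderated model for each). The counts of 0 allow levels up to 6.67% at Papola, where they came from 45 to 55 reads, and up to 2.75% at Mybl2.

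The other 7 followed the same form. Asns, which makes asparagine, had 1.23% and 1.06% in ASCs and 0% and 0.704% in ESCs, against 91.7% and 94.9% in EpiSCs, and its count of 0 allows up to 1.27%. At the shore that overlaps Rpl9, a ribosomal protein gene whose start shares its dense tile with that of Lias, which makes lipoic acid, ASCs had 4.81% and 4.44%, ESCs 0% in both libraries, which allows up to 3.09%, and EpiSCs 98% and 98.6%. The shore beside Rhoa, a small GTPase of the cytoskeleton, and Tcta had 6.90% and 2.33% in ASCs and 98.6% and 98.1% in EpiSCs. Zbtb7a, Itpk1, Snhg20 and the shore shared by Dpm1, Gm20716 and Mocs3 fell in the same ranges, with ASC means of 1.43% to 2.14% and EpiSC means of 95.1% to 96.6%. The dense neighbours of these 10 shores were at 3.6% or less in ASCs. In EpiSCs they varied, from 1.12% beside Papola to 95% beside the Zbtb7a shore.

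The opposite direction, ASCs above EpiSCs, was rare, with 42 shores (0.453%, against a background of 0.101%). Their levels had a median of 50.2% in ASCs (range 23.9 to 82.3%), 15.4% in ESCs (5.42 to 30.03%) and 17.5% in EpiSCs (2.37 to 59.3%). In 26 of them EpiSCs were below 20%. Their dense neighbours were low in every group, with medians of 1.71% in ESCs, 3.96% in ASCs and 2.03% in EpiSCs.

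The greatest of these differences are given by gene. Nkx2-6, a homeobox factor of pharynx and heart (chr14:69172001-69174000, exon), had 69.2% and 68.4% in ASCs and 18.7% and 20% in ESCs, against 14.7% and 20.8% in EpiSCs. The ASC libraries were far above the others there, and those of ESCs and EpiSCs overlapped.

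At Pax3 (chr1:78198001-78200000, intergenic) the levels were 51.9% and 47.3% in ASCs and 17.9% and 23.2% in ESCs, against 7.32% and 2.78% in EpiSCs. At the intronic Pax7 shore (chr4:139818001-139820000, intron) they were 47.4% and 40%, 9.88% and 8%, and 2.61% and 2.13%. ASCs exceeded EpiSCs by 44.5 ± 4.12 points at Pax3 (adjusted p = 1.08e-17) and by 41.3 ± 5.20 points at Pax7 (adjusted p = 2.41e-13, limma-moderated model for both). Wnt11, a secreted Wnt ligand of gastrulation (chr7:98840001-98842000, intron), had 46.2% and 55.5% in ASCs and 22.7% and 25.9% in ESCs, against 6.90% and 1.94% in EpiSCs. Gata4, a factor of endoderm and heart, had 85.4% and 68.5% in ASCs and 39.2% and 34.7% in EpiSCs, on 46 to 66 reads. Sim1, Dmrt3 and Onecut2 exceeded EpiSCs by 44.1, 43.9 and 40.3 points.

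**Figure D3:**
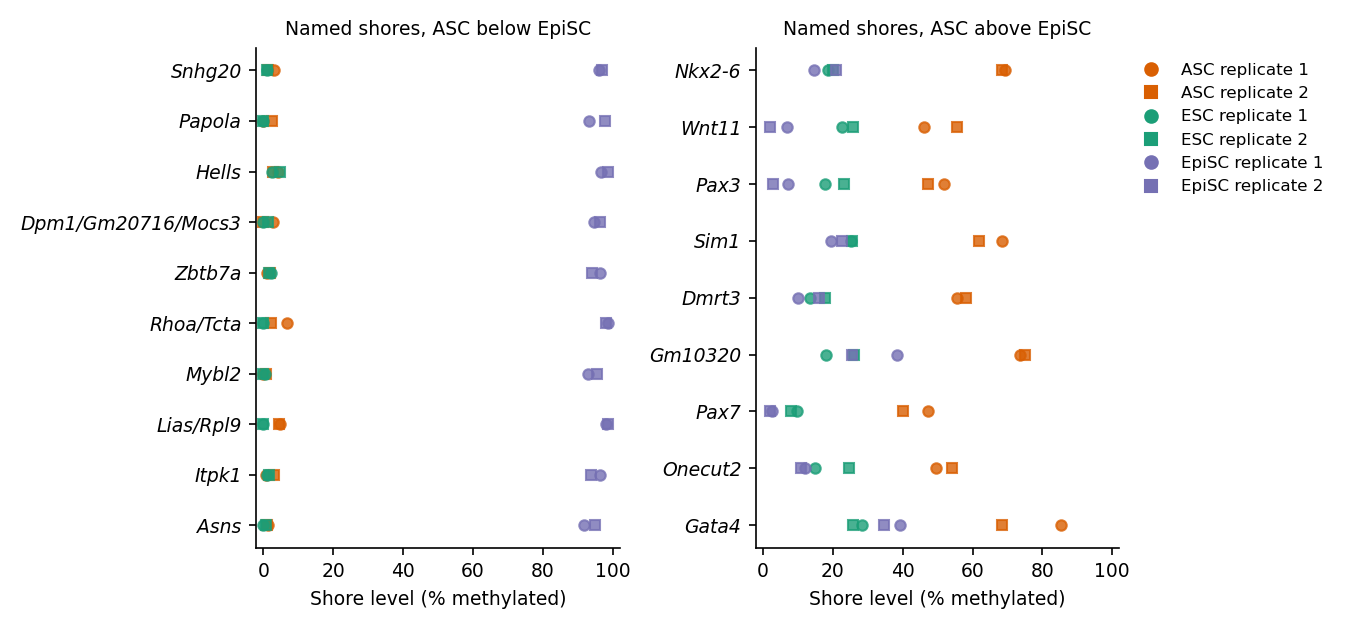
Methylation level (horizontal axis, percent) in each of the 6 libraries at named shores with the greatest differences between ASCs and EpiSCs, 10 in which ASCs were lower (left) and 9 in which they were higher (right), 1 row a shore (vertical axis, gene). On the left no ASC library exceeds 6.90% and no EpiSC library is under 91.7%, and on the right the ASC libraries lie above the EpiSC libraries in every row.

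The 10 shores with the greatest excess of ASCs over ESCs lay between 70.2% and 87.6% in the ASC libraries. Rnf7 (chr9:96480001-96482000, intergenic) had 70.5% and 70.2% in ASCs and 4.44% and 6.62% in ESCs, against 93.0% and 97.3% in EpiSCs. Smap2, an activator of Arf GTPase turnover, had 75.5% and 70.5% in ASCs and 5.13% and 8.57% in ESCs, against 93.1% and 94.5% in EpiSCs. Jak1, the kinase that serves LIF and other cytokine receptors, had 84.5% and 78.1% in ASCs and 12.5% and 19.7% in ESCs, against 88.6% and 93.7% in EpiSCs. ASCs exceeded ESCs by 64.8 ± 3.69 points at Rnf7 (adjusted p = 1.69e-27), 66.2 ± 4.76 at Smap2 (1.03e-19) and 65.2 ± 5.70 at Jak1 (2.45e-15, limma-moderated model for each). Ankrd34b, Galnt2, Wac, Tmem132d, Trib2, Nppc and the shore shared by Pinlyp and Xrcc1 completed the 10, with ASC means of 74.0% to 83.3% and ESC means of 7.87% to 18.6%. The dense neighbour of the Tmem132d shore was itself methylated, at 64.4% in ASCs and 88.4% in EpiSCs.

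The 10 shores with the greatest excess of EpiSCs over ESCs ran from 2.33% to 35.1% in the ASC libraries. Kat6b, a histone acetyltransferase gene, had 34.9% and 35.1% in ASCs and 3.09% and 4.11% in ESCs, against 98.9% and 100% in EpiSCs. Cobl, an actin nucleator gene, had 10.7% and 4.88%, 0% and 2.22%, and 100% and 95.3% in the same order, and its count of 0 allows up to 5.66%. The rest were the shores of Rhoa with Tcta and of Lias with Rpl9 given above, and those of Dcp2, Gabarapl2, Camkk2, C1qbp, Pld1 and Bcl7b, with ASC means between 10.4% and 31.1% and EpiSC minus ESC differences between 95.6 and 97.5 points.

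The gene-body side of a start was less methylated than the upstream side, by the most points in ASCs. For shores whose dense neighbour held protein-coding starts on 1 strand only, those on the gene-body side (2731, of which 99.3% overlapped a protein-coding gene) had medians of 40.8% and 41.1% in ASCs. Those on the upstream side (3171, of which 13.4% overlapped one) had 51.2% and 51.5%. In ESCs the medians were 10.4% on the body side and 13.6% upstream, so the order of the groups is one of points and not of ratios. The body minus upstream difference was -10.4 points in both ASC libraries, -2.96 and -3.43 points in the ESC libraries, and -1.56 and -1.53 points in the EpiSC libraries (exact permutation test, p = 0.067). Body-side shores held a median of 25 positions and upstream shores 23. With shores of 21 to 30 positions alone, a choice made after the data were seen, it was -3.15 points in ESCs, -9.64 in ASCs and -1.24 in EpiSCs. With 100 reads required in every library it was -5.83 points in ASCs and turned to 1.62 points in EpiSCs.

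The same held between the 2 shores of a single dense tile. Over 1786 dense tiles with a shore on each side, the median body minus upstream difference was -2.67 points in ESCs, -7.55 in ASCs and -0.865 in EpiSCs (exact permutation test, p = 0.067). The body side was the higher of the pair in 39.9% of these tiles in ASCs, 38.8% in ESCs and 47.6% in EpiSCs. By distance, the first 250 bp had 16.1% on the body side and 24.3% on the upstream side in ASCs, and 40.6% and 47.3% in EpiSCs. In the last bin ASCs kept the order, at 54.1% and 57.6%, while EpiSCs had 89.9% on the body side and 86.0% on the upstream side.

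**Figure D4:**
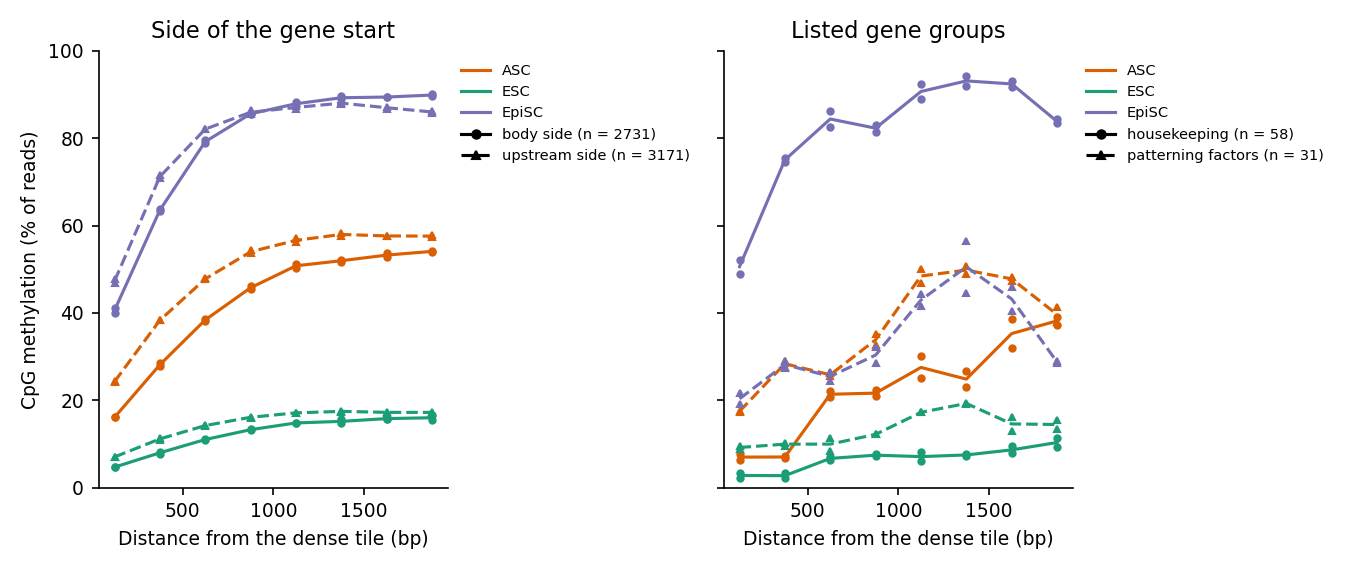
Pooled CpG methylation (vertical axis, percent of reads) in 250 bp bins by distance from the dense tile (horizontal axis, bp), for shores on the gene-body and upstream sides (left) and for shores of housekeeping and patterning genes (right). Lines join group means and points are the 2 libraries of a group. In ASCs the body side is lower throughout, from 16.1% against 24.3% in the first bin to 54.1% against 57.6% in the last.

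What lay in the dense neighbour went with the ASC level as well. Where it held starts on both strands (717 shores) the shore medians were 38.8% ± 0.50 in ASCs (SD, n = 2), 10.03% in ESCs and 87.9% in EpiSCs. Where it held no annotated start (2151 shores) they were 51.3% ± 0.18, 14.0% and 88.2%. EpiSC medians of these classes were close to each other, and those of ASCs lay further apart. ESC medians were in the same order as those of ASCs, and the wider gap of ASCs is one of points and not of ratios. Intergenic shores (2565) had medians of 52.2%, 13.9% and 87.8% in ASCs, ESCs and EpiSCs, and shores touching an exon (3755) had 45%, 12.1% and 88.3%. In tiles elsewhere with 40 or fewer positions the ASC medians of the same classes were nearer to each other, at 69.9% where intergenic and 69.8% where they touched an exon. These splits are descriptions, and CpG number and distance from the start were not matched among the classes.

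Dense neighbours that were methylated in EpiSCs had more methylated shores in ASCs. The split was made on EpiSC replicate 1, so values of that library are set by it. In 7537 pairs with the dense tile below 20% the shores had medians of 44.7% in ASCs and 11.7% in ESCs, and 86.6% in EpiSC replicate 2. In 376 pairs with it above 80% the shores had 62.5%, 18.8% and 92.5%. The dense tiles of those 376 pairs, counted once for each pair, had medians of 16.1% in ASCs and 5.33% in ESCs, and 95.4% in EpiSC replicate 2, so the median ASC level of dense tiles above 80% in EpiSCs was low.

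Shores of listed genes were then described, first those of pluripotency. A shore counted for a list where its dense neighbour held the start of a listed gene. Of 14 naive pluripotency genes 4 had a shore, and 2 of the 4 were called lower in ASCs than in EpiSCs, as were 73.0% of all shores. At the upstream shore of Klf2 (chr8:72316001-72318000, intergenic) ASCs had 5.19% and 2.90%, ESCs 0.909% and 0% (a count that allows up to 4.11%), and EpiSCs 52.1% and 58.6% (ASC minus EpiSC -51.3 ± 5.11 points, adjusted p = 3.61e-14). Klf5 had 53.1% and 52.0% in ASCs and 14.3% and 18.6% in ESCs, against 96.3% and 88.7% in EpiSCs (-39.95 ± 5.11, adjusted p = 2.86e-09, limma-moderated model for both). Klf4 had 51.3% and 29.1% in ASCs and 41% and 50.4% in EpiSCs, where the libraries overlapped and the difference was not called (adjusted p = 0.232). At the Tet2 shore ASCs had 0%, which allows up to 3.16%, and 2.86%, and EpiSCs 10.9% and 15.2%, under the 20-point minimum. KLF2, KLF4 and KLF5 are factors that hold the naive state, and TET2 is an oxidase of methylated cytosine.

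The shore upstream of the core factor gene Sall4 (chr2:168768001-168770000, touching an exon of the predicted gene Gm14261) had 13.9% and 6.38% in ASCs and 6.94% and 4.11% in ESCs, against 85.8% and 88.6% in EpiSCs, with a difference between ASCs and EpiSCs of -77.1 ± 3.25 points (adjusted p = 3.09e-33, limma-moderated model). Myc, the growth regulator, had 29.2% and 30.4%, 6.93% and 6.19%, and 50% and 58.8% in the same order. Both shores were called lower in ASCs than in EpiSCs, as were 73.0% of all shores. These were the only 2 shores among 8 core genes. None of 18 germline genes had a shore.

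Genes of the primed epiblast and gastrulation had 7 shores, and ASCs were called below EpiSCs at 3 and above ESCs at 4, where the shares over all shores were 73.0% and 73.5%. The body-side shore of Mixl1, a homeobox factor of the primitive streak, had 51.8% and 59.6% in ASCs and 14.8% and 14.1% in ESCs, against 95.3% and 95.1% in EpiSCs. T (brachyury), the mesoderm factor, had 76% and 68%, 26.8% and 33.9%, and 94.3% and 92.3%. Both shores of Fgf5, a growth factor gene of the primed epiblast, were low in every group and neither was called in any comparison. ASC levels were 14.0 to 19.4%, ESC levels 5.30 to 8.96% and EpiSC levels 9.71 to 27.6%. The upstream shore missed only the 20-point minimum between EpiSCs and ESCs, at 19.7 points (adjusted p = 1.58e-08, limma-moderated model). Eomes likewise had 13.0% and 18.4% in ASCs and 31.7% and 19.7% in EpiSCs, and was not called.

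Among 12 genes of the methylation machinery on these chromosomes 4 had a shore. ASCs were called above ESCs at 3 of the 4 and below EpiSCs at 2, where the shares over all shores were 73.5% and 73.0%. Dnmt3a, a de novo methyltransferase gene, had 46.2% and 57.4% in ASCs and 9.26% and 13.7% in ESCs, against 92.0% and 86.6% in EpiSCs, and was called in both ASC comparisons. Dnmt3b, its partner, had 73.3% and 73.0%, 40.9% and 30.2%, and 92.9% and 89.5%, and its ASC minus EpiSC difference of -18.1 points was under the minimum. Mbd2, a reader of methylated CpG, was called in both, at 53.6% and 59.2% in ASCs, 18.9% and 8.20% in ESCs, and 94.8% in both EpiSC libraries. Tet2, described above, belongs to this list too.

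Of 5 shores of endoderm and trophoblast genes, Cdx2, a factor of trophectoderm and hindgut, was the one called higher in ASCs than in EpiSCs, as were 0.453% of all shores. Its shore (chr5:147308001-147310000, intergenic) had 63.0% and 57.7% in ASCs and 21.6% and 17.2% in ESCs, against 23.5% and 17.4% in EpiSCs (39.9 ± 4.71 points, adjusted p = 1.96e-12, limma-moderated model). The 2 shores called lower in ASCs than in EpiSCs, as were 73.0% of all shores, were both of Tead4, a factor of the trophectoderm, with differences of -27.1 points on the body side and -37.7 points upstream. The Sox7 difference between ASCs and EpiSCs, -14.8 points (adjusted p = 5.3e-05, limma-moderated model), was under the 20-point minimum.

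Imprinted genes had 8 shores, and ASCs were called above ESCs at 7 and below EpiSCs at 7, where the shares over all shores were 73.5% and 73.0%. The shore upstream of a Gnas start (chr2:174282001-174284000, touching an exon of the antisense transcript Nespas) had 27.9% and 35.8% in ASCs and 11.2% and 7.69% in ESCs, against 86.7% and 92% in EpiSCs (ASC minus EpiSC -57.5 ± 3.75 points, adjusted p = 3.07e-25). The upstream shore of Dlk1 was the exception to the order of the groups, with 28.4% and 19.8% in ASCs and 2.73% and 3.70% in ESCs, against 10.9% and 6.03% in EpiSCs. Its ASC excess over EpiSCs, 15.6 ± 4.32 points (adjusted p = 0.000298, limma-moderated model), was under the 20-point minimum. The body-side shore of the same Dlk1 dense tile had 43.8% and 38.7% in ASCs and 79.1% and 79.2% in EpiSCs.

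Patterning factors, the Hox, Pax, Irx, Dlx and related homeobox genes, had 32 shores of 29 genes. Their median levels were 12.02% in ESCs, 29.8% in ASCs and 27.5% in EpiSCs. Over all shores the medians of the same group means in ESCs, ASCs and EpiSCs were 12.7%, 47.6% and 87.9%. The median ASC minus EpiSC difference was 2.91 points and the mean 2.003, against a median of -29.4 over all shores. ASCs were called higher than EpiSCs at 4 shores (Pax3, Pax7, Hoxa4 and Hoxc13) and lower at 3 (2 of Hoxd1 and Irx6), where the shares over all shores were 0.453% and 73.0%. The Pax7 shore counted here is the one upstream of the start, with 32.8% and 27.1% in ASCs and 5.61% and 5.33% in EpiSCs. ASCs were called above ESCs at 15 of the 32, against 73.5% of all shores. They had the higher mean at all 32, as they did at 9184 of all 9266 shores.

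Hoxa4 had 57.8% and 57.4% in ASCs and 13.1% and 21.2% in ESCs, against 19.6% and 22.0% in EpiSCs on 10 CpG positions. The body-side shore of Hoxa2 stayed low, with 12.9% and 17.2% in ASCs and 6.44% and 3.05% in ESCs, against 2.45% and 2.86% in EpiSCs. Hoxa11, Hoxa13, Hoxd10 and the body-side shore of Hoxc13 also stayed low, with no library above 23.4%. Other Hox shores were intermediate. Hoxd12, for example, had 43.7% and 53% in ASCs and 46.7% and 36.2% in EpiSCs. Hoxb9 had 29.5% and 37.9% in ASCs and 46.3% and 39.4% in EpiSCs. Hoxd1 was higher still, with 60.2% and 55.8% in ASCs and 88.8% and 89.9% in EpiSCs on the body side. Hox genes lie in clusters, and their shores share neighbourhoods and are not independent.

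Housekeeping genes, mostly of ribosomal proteins, were at the other extreme. Their 61 shores, of 39 genes, had medians of 3.05% in ESCs, 12.02% in ASCs and 90.2% in EpiSCs, and ASCs were called lower than EpiSCs at 59 of them and higher at none, where 73.0% of all shores were lower. The median ASC minus EpiSC difference was -58.0 points. ASCs were called above ESCs at 23, against 73.5% of all shores. They had the higher mean at 58, where they had it at 9184 of all 9266 shores. EpiSCs were called above ESCs at 60, against 94.4%. In 36 of the 61 the ASC mean was below 20%, and in 42 the EpiSC mean was above 80%. Over all shores 18.2% and 18.6% were below 20% in the ASC libraries. In the EpiSC libraries 64.4% and 63.9% of all shores were above 80%. The name pattern took in 3 shores of the kinase genes Rps6ka1 and Rps6ka2, which encode no ribosomal protein, and 54 shores lay beside ribosomal protein genes.

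By side of the start, the 21 on the body side had a median of 4.38% in ASCs and 91.9% in EpiSCs, and the 25 on the upstream side had 35.3% and 89.0%. Rpl19 (chr11:98028001-98030000, exon) had 8.59% and 11.5% in ASCs and 4.05% and 2.76% in ESCs, against 94.1% and 91.9% in EpiSCs on its body side (ASC minus EpiSC -83.0 ± 2.34 points, adjusted p = 6.38e-46). Rpl7a had 5% and 5.99% in ASCs and 0.637% and 0.595% in ESCs, against 95.2% and 93.4% in EpiSCs (-88.8 ± 1.99, adjusted p = 1.01e-48, limma-moderated model for both). The upstream shore of Ppia, the cyclophilin A gene, had 47.7% and 40% in ASCs and 7.35% and 13.2% in ESCs, against 88.4% and 86.4% in EpiSCs.

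The level in EpiSCs was not high at every one of them. The body-side shore of Rpl14 had 0.483% and 2.45% in ASCs, 0% in both ESC libraries (allowing up to 1.58%), and 47.6% and 60.5% in EpiSCs. That of Rps3a1 had 0.725% and 1.03%, 0.474% and 1.28%, and 25% and 24.2%. Eef2, the translocase of translation, had 3.93% and 2.72% in ASCs and 27.0% and 34.2% in EpiSCs upstream. The upstream shore of Rps3a1, with a difference of -16.7 points, missed the 20-point minimum. Another shore, also upstream of its start, was not called lower either. Its EpiSC mean was 7.74%, the lowest of the list, and its ASC mean was the higher of the pair.

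**Figure D5:**
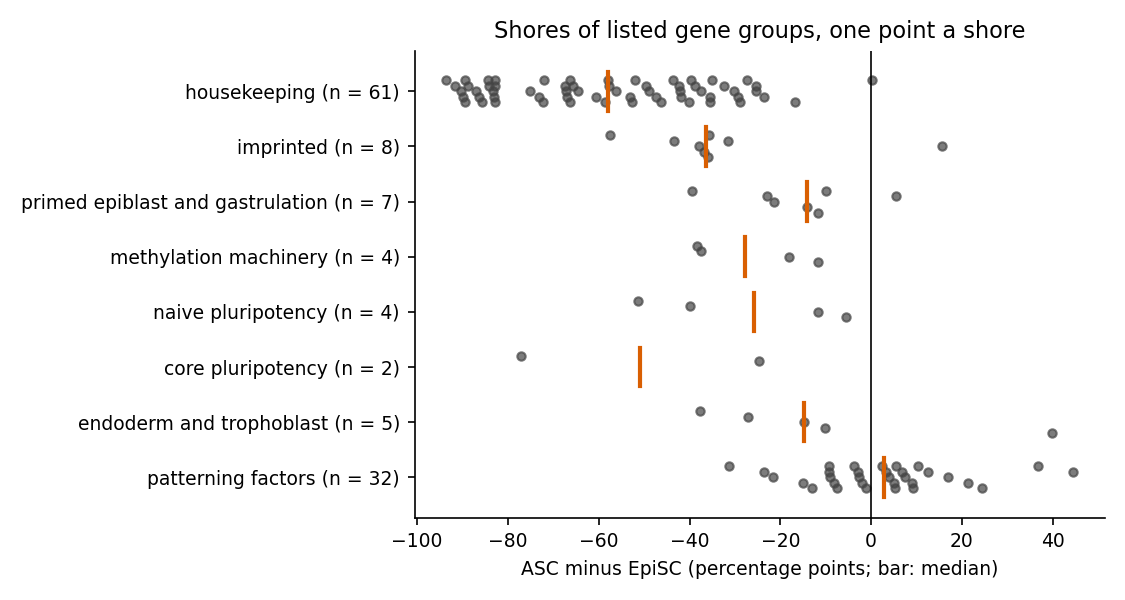
ASC minus EpiSC level (horizontal axis, percentage points) of every shore of each gene list (vertical axis, with the number of shores), 1 point a shore, with the median as a bar. The 61 housekeeping shores have a median of -58.0 points, with 60 below 0 and 1 above. The 32 patterning shores lie on both sides of 0 with a median of 2.91.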

How the data were processed

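The assay was whole-genome bisulfite sequencing with adaptors added after conversion. Bisulfite turns unmethylated cytosine into a base read as thymine. According to the study and the submitters' processing notes, the authors trimmed reads with Trim Galore, aligned them to GRCm38 with Bismark 0.16.3, removed duplicates, and merged both strands of each CpG with MethPipe. The deposited tables give for each CpG the methylation level as a fraction and the coverage as a raw read count, which the authors did not normalize. Replicates were not pooled. Going by the labels, the reads came from another mouse strain than the reference, and a C-to-T difference at a CpG is read as unmethylated. This was not tested.

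Methylated reads were recovered as fraction times coverage, which deviated from whole numbers by at most 0.000115. All 20358034 CpG positions listed on chromosomes 1 to 19 in any library fell on a CG of GRCm38. Reads were summed in 2 kb tiles (position counted from 0, divided by 2000, rounded down). Gene starts and exons came from GENCODE M21. Coordinates are counted from 1. Sequences came from the GRCm38 assembly of RefSeq.

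Each tile was fitted with a group model of methylated and unmethylated reads (quasi-binomial). The squeezeVar function of limma (version 3.58.1, R version 4.3.3) moderated its dispersion. Contrasts were tested by F tests, which are two-sided, and p-values were adjusted by the Benjamini-Hochberg method across 441118 tiles. Other values were taken per library and compared by an exact permutation test of F over 15 assignments. The code was tested on simulated data. Named shores were the 10 called shores with the greatest difference in each contrast and direction whose libraries did not overlap, and for each gene list shores with the most reads. Others named among lists were chosen after their values were seen. Some shores that met these rules are not reported here. A shore took the name of a gene starting in its dense neighbour, failing that of a gene it overlapped, and failing that of the nearest protein-coding start. The shores, lists and tests were chosen with earlier results of these data known. At the limits of the choice, shores of 36 to 40 positions had medians of 30.2%, 7.86% and 62.1% in ASCs, ESCs and EpiSCs, and tiles of 41 to 45 positions beside a dense tile had 24.3%, 6.64% and 51.3%. Shores with 40 to 49 reads in their shallowest library had 51.5%, 13.2% and 88.8%, and tiles with 30 to 39 had 53.9%, 14.1% and 89.3%.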

Additional observations from a re-analysis of the deposited data

How the results depend on the processing

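Under other settings 29 of the recomputed values moved and 154 did not. Counts of calls were labelled as moved beyond a set fold change. The place of ASCs between the other groups was labelled so at any shift beyond the SD of its 2 libraries, 0.00015, a narrow limit. No difference between ASCs and EpiSCs that was compared changed its direction. Values within 1 group changed more, and the side difference of EpiSCs changed sign, as given above. The group order of the gap to other CpG-poor tiles changed in 2 settings, as given above. The shores named for the greatest difference in a contrast kept direction and call under the 11 settings run for them, wherever they still qualified as shores. They were chosen for large differences in these same data, so a kept call says little about them. Shores named only from the gene lists were not rerun one by one. With no minimum difference, ASCs were below ESCs in 4 shores (0.043%, against 0.070% of all tiles), above EpiSCs in 111 (1.20% against 0.378%) and below them in 8333 (89.9% against 90.5%), and EpiSCs were below ESCs in 10 (0.108% against 0.058%). With a 40-point minimum, ASCs were above ESCs in 3261 shores (35.2%, against 71.7% of all tiles), above EpiSCs in 10 (0.108% against 0.0131%) and below them in 2760 (29.8% against 12.1%), and EpiSCs were below ESCs in 0. Fewer shores qualified with 100 reads in every library, which gave 2128 (71%, against 78.6% of all tiles), 14 (0.467% against 0.169%) and 2186 (72.9% against 55.1%) in the same order, and 0 with EpiSCs below ESCs. EpiSCs were then above ESCs in 2807, and the share of shores, 93.7%, exceeded the 88.4% of all tiles, the opposite of the order with 40 reads. With 30 or fewer positions the share was 96.8% of shores against 96.5% of all tiles. Dense tiles of over 100 positions gave 3731 (70.0%), 20 (0.375%), 3892 (73.0%) and 5004 (93.9%), and shores of 30 or fewer positions gave 24 (0.343%) with ASCs above EpiSCs, beside the shares of all tiles given above. A grid moved by 1 kb gave 0 with EpiSCs below ESCs. Leaving out 1 library gave 1 to 2 in that direction, 2 without ESC replicate 1 or EpiSC replicate 1. The median place of ASCs between ESCs and EpiSCs was 0.532 with 20 reads, 0.511 with 100 reads, 0.535 with 30 or fewer positions, 0.508 with denser neighbours and 0.526 on the moved grid, and between 0.522 and 0.526 with 1 library left out. Replicate numbers did not pair the libraries, with correlations of deviations from -0.00586 to 0.00223. With the replicate block ASCs were called above ESCs in 6806 shores, above EpiSCs in 42 and below EpiSCs in 6765. EpiSCs were called above ESCs in 8745. The block leaves the differences of group means as they are. In the main fit every shore past 20 points with an unadjusted p under 0.05 was called, so the equal counts say little.

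There were 2 libraries in each group, and a median of 92 to 106 CpG reads a shore limits single shores more than medians over many. Pooled over reads, the shore level was 13.2% in ESCs, 44.4% in ASCs and 75.3% in EpiSCs.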
